A study of Mus musculus with 18 samples.

Results

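The mitochondrial ribosomal protein genes were taken from the liver RNA-seq table of this series as the protein-coding genes whose symbol starts with Mrpl or Mrps followed by a number. The rule found 78 genes among the 54532 genes of the table and among its 22046 protein-coding genes. Of these, 49 carry Mrpl symbols, given here as the large subunit, and 29 carry Mrps symbols, given here as the small subunit. A further 5 genes of the same name pattern are processed pseudogenes and were left out. All mice were male C57BL/6J, 6 weeks old at the start. The normal control (NC) mice ate normal chow. The HFD mice ate a high-fat diet for 14 weeks and then received saline while the diet went on. The SZ-A mice had the same diet and then received SZ-A, the alkaloid fraction of mulberry twig (Ramulus Mori). The treatment period is 8 weeks in the series description and 6 weeks in the study's methods. Each group had 6 mice, and the whole liver was sequenced, so that fewer cells of a type and less RNA per cell cannot be told apart.

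Mitochondria keep their own ribosomes. The proteins of these particles are encoded in the nucleus, made in the cytosol and imported, and there they join ribosomal RNA transcribed from the mitochondrial genome. The small subunit binds the messenger RNA and holds the decoding site, while the large subunit forms peptide bonds and feeds the new chain through its exit tunnel to the inner membrane. The products are subunits of the respiratory chain and of ATP synthase, and in the liver, an organ rich in mitochondria, they serve the oxidation of fatty acids among other fuels. Some of the proteins have relatives in bacterial ribosomes, and others are found in mitochondria only. The symbols do not follow the structure in every case, since the products of Mrps30 and Mrps18a lie in the large subunit and the product of Mrps36 belongs to the 2-oxoglutarate dehydrogenase complex.

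Values are FPKM, that is, fragments scaled by the length of the gene and the size of the library. The libraries held 17163191 to 20493907 fragments assigned to genes, and the Mrpl and Mrps genes took 0.206 to 0.258% of them. A gene was tested when its mean over the 18 mice was at least 1 FPKM. This left 10216 genes, among them 77 of the 78 members. A call needed an adjusted p under 0.05 (limma on log2 of FPKM + 0.1, Benjamini-Hochberg over all genes tested) together with a fold over 1.2. In 1 of the NC mice, NC6, the diet label reads high-fat diet although its title places it with the chow mice. It was kept by its title, and the calls without it stand beside the results. Another NC mouse, NC5, stood apart from its group: it was the highest NC mouse for 61 of the 77 genes.

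The genes were expressed at moderate levels in liver. Their mean FPKM over the 18 mice ran from 1.49 for Mrps25 to 63.9 for Mrpl34, with a median of 10.5, and 58 of the 77 lay above 5.13, the median of all genes tested. The large subunit had the higher median, 12.4 FPKM against 7.51 for the small subunit. Mrpl34 and Mrpl14 (54.9 FPKM) were the highest of the large subunit, and Mrps21 (36.6 FPKM) and Mrps24 (35.8 FPKM) were the highest of the small subunit. All 4 have bacterial relatives. At the low end stood Mrpl33 at 1.88 FPKM, Mrps30 at 1.92 FPKM and Mrps25.

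The level of a member followed the length by which its fragments were divided. Across the 77 genes, Spearman's rho between gene length and mean FPKM was -0.82, given as a description across genes that share libraries and the length term itself. The deposited gene length equals the merged length of all annotated exons (GENCODE M21) for 73 of the 78 members, and in several members long extra exons make it much longer than the coding transcript. Mrpl33 has a merged length of 7326 bases and a coding transcript of 478 bases. Divided by the latter, its level was 28.8 in place of 1.88. In the same way Mrpl23 went from 4.92 to 32.7 and Mrps10 from 3.52 to 27.9. Mrps25 stayed lowest, at 1.62. These rescaled levels assume that all fragments came from that transcript. On this scale the 77 genes spread over a 59.8-fold range, wider than the 42.8-fold range of the deposited FPKM. Spearman's rho between transcript length and the rescaled level was -0.76, again with the length term shared.

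**Figure D1:**
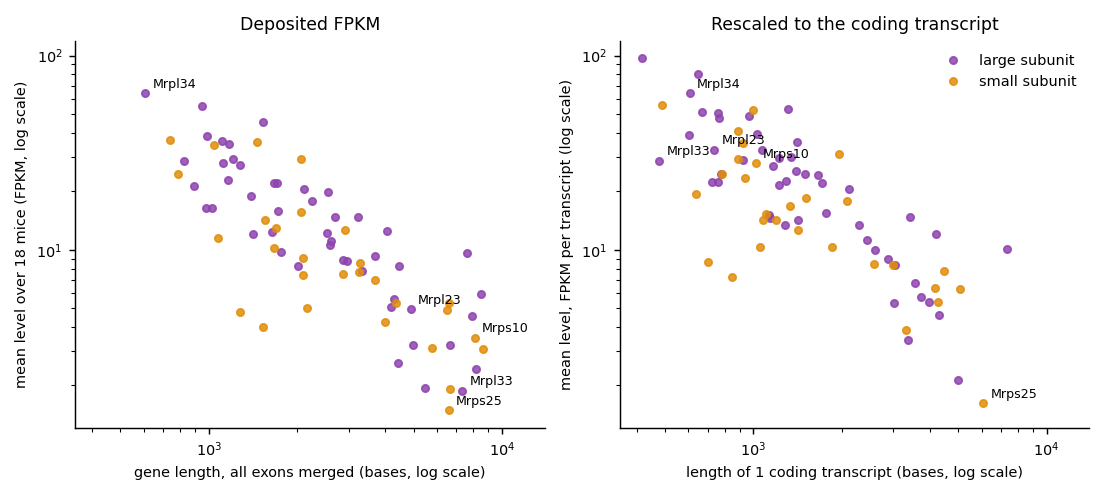
Mean level of each of the 77 tested genes over 18 mice (log scale) against length (log scale), with the large subunit in purple and the small subunit in orange. Left, deposited FPKM against the merged exon length. Right, the level rescaled to 1 coding transcript per gene against the length of that transcript. Mrpl33, Mrpl23 and Mrps10 move up from 1.88, 4.92 and 3.52 to 28.8, 32.7 and 27.9, while Mrps25 stays the lowest.

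Mrpl53 was listed at 0 in all 18 mice. Of its exon bases (chromosome 6, 83109040 to 83109939, GRCm38), 88.0% also belong to exons of Ccdc142os on the opposite strand or Gm42688 on the same strand. Mrps34 and Mrps25 also share most of their exon bases with another gene, 77.8% and 69.8%. Among the pseudogenes, Mrpl23-ps1 reached 5.54 FPKM in 1 mouse, close to the level of Mrpl23 itself, and reads of near-identical copies may be split between the pair.

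Both subunits had like totals in the 3 groups. The summed FPKM of the 48 large-subunit genes was 823 ± 93.7 in the chow mice. It was 781 ± 32.2 with the high-fat diet alone and 837 ± 35.5 with SZ-A (mean ± SD, n = 6). That of the 29 small-subunit genes was 338 ± 42.2, 320 ± 19.5 and 338 ± 23.9 in the same order. In both subunits the ranges of the 3 groups overlapped, and the highest sum belonged to NC5 (1005 and 423). The ratio of the large to the small sum averaged 2.43 ± 0.0435 (NC), 2.44 ± 0.0936 (HFD) and 2.48 ± 0.113 (SZ-A), with single mice between 2.30 and 2.66. The means of the 3 groups thus lay within the range of the mice of any 1 group. Summed FPKM leans on the few high genes, and the median gene gave the same overlap. The median large-subunit level had a range of 11.7 to 14.8 FPKM for NC mice, of 12.05 to 13.3 for HFD mice and of 12.3 to 14.6 for SZ-A mice.

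**Figure D2:**
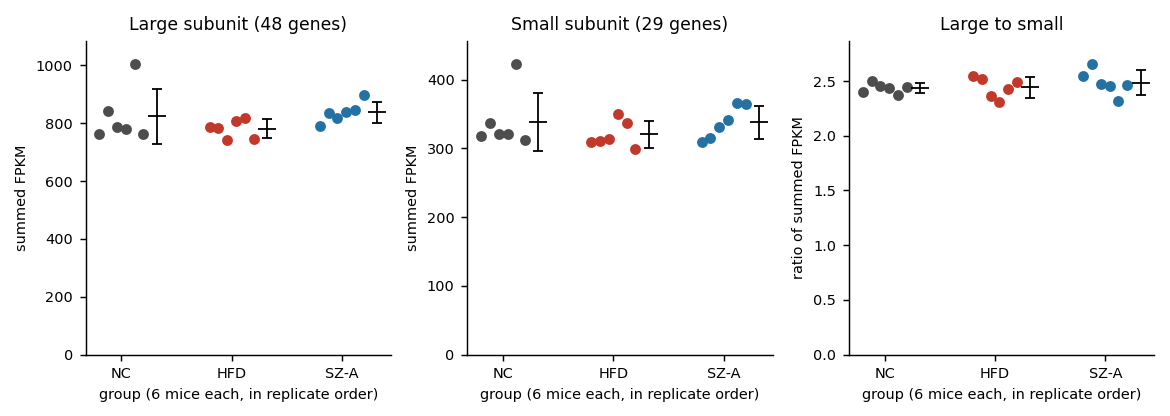
Summed FPKM of the 48 large-subunit genes (left) and the 29 small-subunit genes (middle), and their ratio (right), in each of the 18 mice. Points are mice in replicate order and the bar beside them is the mean ± SD of 6 mice. The groups overlap in all 3 panels, the ratio lies between 2.30 and 2.66, and NC5 is the highest mouse in both sums.

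The spread between mice differed by group. The median coefficient of variation over the 77 genes was 13.8% within NC, 9.69% within HFD and 8.87% within SZ-A. It was largest in NC for 52 genes. In NC5 the library size by which the FPKM had been divided was 0.933 of its fragments, the lowest of the 18 mice, against 0.968 to 1.02 in the other NC mice. HFD mice had factors of 0.998 to 1.14 and SZ-A mice of 0.972 to 1.05. A lower factor gives higher FPKM for every gene of a mouse. Even as a share of fragments, the members were highest in NC5, at 0.258% against 0.206 to 0.224% in the other NC mice.

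HFD feeding was compared with chow first, since it sets the difference that a treatment could act on. Of the 77 genes, 5 were called lower in HFD mice (Mrps31, Mrpl15, Mrps10, Mrpl17 and Mrpl24) and 1 higher (Mrps25). The 6 calls are 7.79% of the members, against 20.2% of all genes tested that were called in this comparison (10.7% higher and 9.49% lower). The median log2 fold change was -0.08 over the members and -0.03 over all genes tested, and 23 members had a higher estimate in HFD against 45.1% of all genes. An unadjusted p under 0.05 (limma) was reached by 10 members, against 34.8% of all genes tested. The large subunit had a median of -0.07 and the small subunit of -0.10. On deposited FPKM the 95% interval lay within a 1.5-fold change in either direction for 69 of 77 members, against 63.4% of all genes tested. These intervals cover the spread between mice and not the choice of scaling.

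The direction of the members as a whole depended on whether the FPKM were rescaled to a common sum. When the FPKM of each mouse were rescaled to a common sum, the median of all genes tested moved to 0.15. That of the members moved to 0.11, a turn of sign. On that scale 10 members were called, 9 of them higher in HFD. The share of all genes called after rescaling is not given here, so these calls are not read as a result about the members. Relative to all genes, the members' median was -0.05 on either scale. Without NC5 the median of the members was -0.03, no lower than that of all genes, and 6 genes were called, with Mrps11 in place of Mrpl24. With sample weights the members' median was -0.04 and that of all genes tested -0.04. Under median-ratio scaling, another alternative, the class medians kept the sign they had on deposited FPKM. For the large subunit they were -0.07 (bacterial relatives) and -0.03 (specific to mitochondria). For the small subunit they were -0.07 and -0.17 in the same order, and 0.16 for the Mrps symbols placed outside it.

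**Figure D3:**
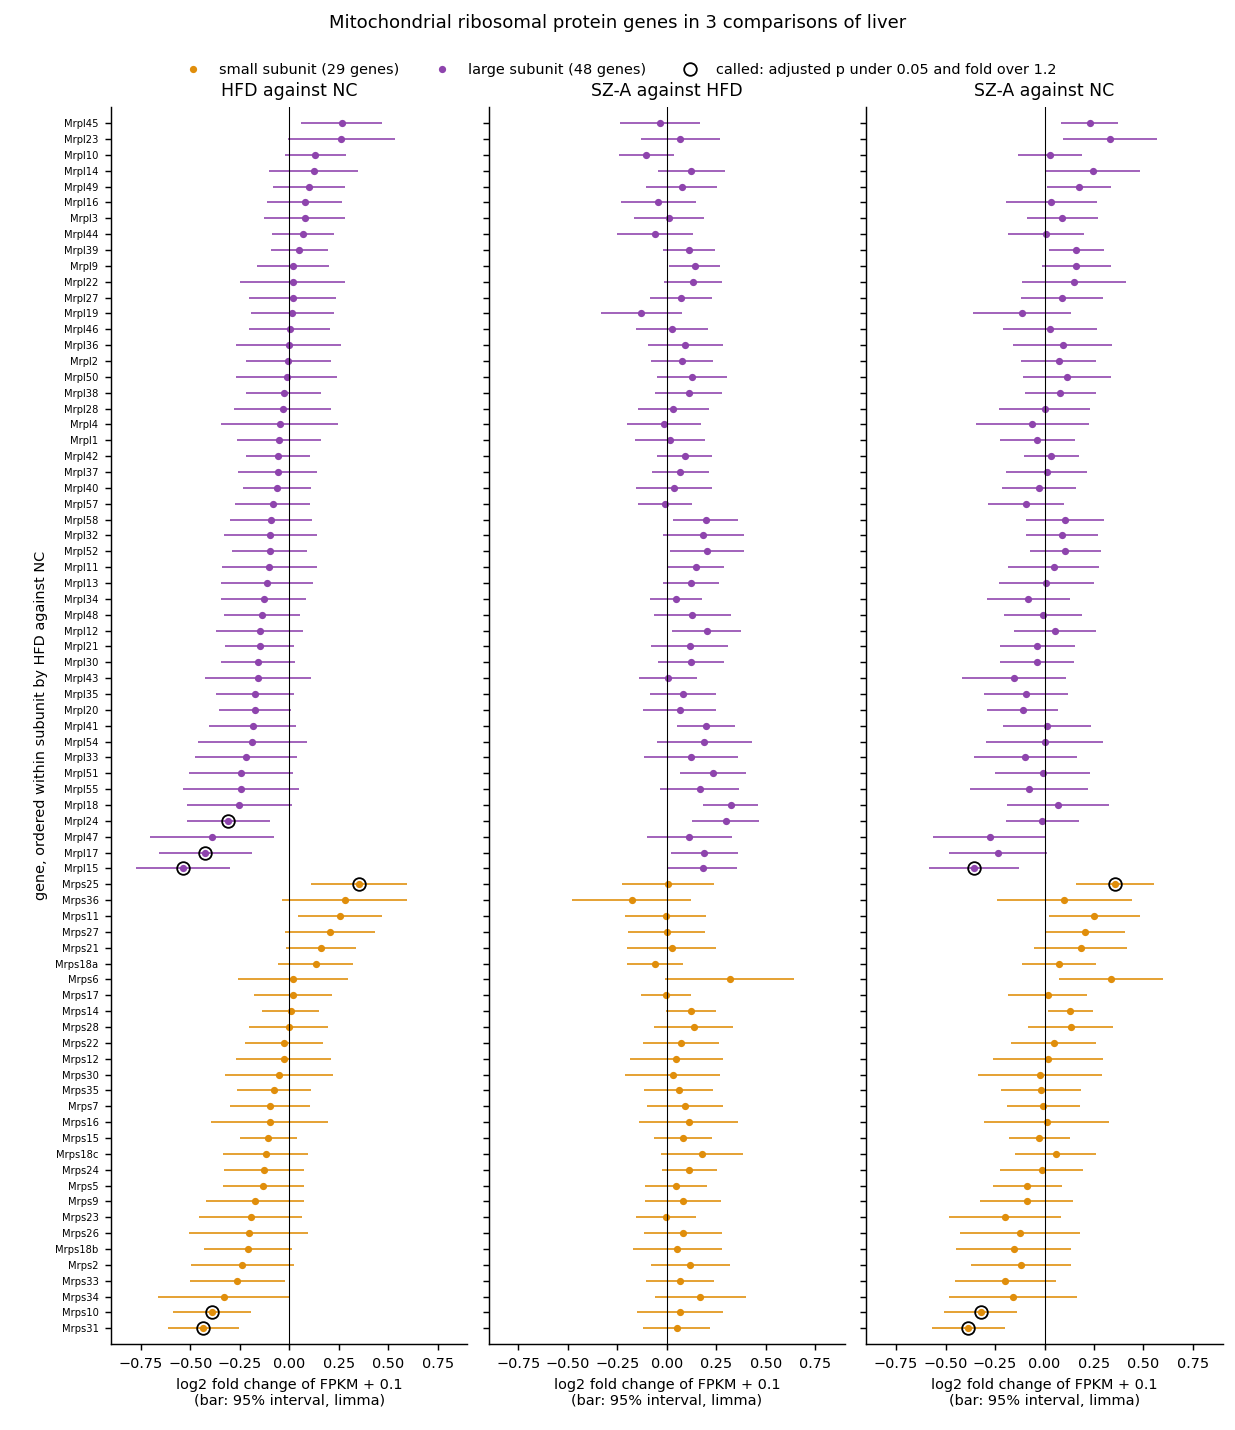
Log2 fold change of FPKM + 0.1 for the 77 genes (rows, small subunit in orange below, large subunit in purple above) in HFD against NC, SZ-A against HFD and SZ-A against NC. Lines are 95% intervals from limma and circles mark called genes. There are 6 circles in the left panel, 0 in the middle and 4 on the right, and most intervals cross 0 in each panel. On FPKM rescaled to a common sum the medians of the left and middle panels are 0.11 and -0.095, against -0.08 and 0.08 as plotted.

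Mrps31, which encodes a mitochondria-specific protein of the head of the small subunit, gave the smallest adjusted p among the members. Its FPKM had a lowest, median and highest value of 9.17, 10.3 and 11.5 in NC, 6.30, 7.77 and 7.89 in HFD, and 6.90, 7.95 and 8.75 in SZ-A. Every HFD mouse and every SZ-A mouse lay below every NC mouse. The log2 fold change of HFD against NC was -0.43 ± 0.08 (SE; adjusted p = 0.00313, limma). The call held when any 1 mouse was left out, and on rescaled FPKM the value was -0.24 (adjusted p = 0.0394, limma), under the fold limit. The gene lies on chromosome 8, 22411361 to 22429665 (GRCm38, plus strand), and shares no exon base with another gene.

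Mrpl15, whose product belongs to the core of the large subunit and has a bacterial relative, had the largest fall. Its FPKM was 6.08, 6.79 and 9.60 (lowest, median, highest) in NC, 4.19, 4.95 and 5.69 in HFD, and 4.80, 5.80 and 5.97 in SZ-A. Neither HFD nor SZ-A mice overlapped with the NC mice. The log2 fold change was -0.54 ± 0.11 (adjusted p = 0.00429, limma), and it was -0.35 (adjusted p = 0.0140, limma) on rescaled FPKM. This gene (chromosome 1, 4773206 to 4785739, minus strand) kept its call in HFD against NC under all 23 alternatives run.

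Mrps10 encodes a head protein of the small subunit with a bacterial relative. It had 3.83, 4.14 and 4.57 FPKM in NC and 2.54, 3.31 and 3.50 FPKM in HFD, again with no overlap. Its log2 fold change was -0.39 ± 0.09 (adjusted p = 0.00902, limma), and -0.20 (adjusted p = 0.127, limma) on rescaled FPKM.

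Mrpl17 and Mrpl24 encode large-subunit proteins with bacterial relatives near the exit tunnel. Mrpl17 had 8.74, 11.02 and 14.8 FPKM in NC and 7.65, 8.05 and 9.15 FPKM in HFD, so that the lowest NC mouse lay within the HFD range. Its log2 fold change was -0.42 ± 0.11 (adjusted p = 0.0152, limma), and -0.23 (adjusted p = 0.0712, limma) on rescaled FPKM. Mrpl24 had 16.1, 19.3 and 22.2 FPKM in NC and 13.3, 15.5 and 17.9 FPKM in HFD, and the groups overlapped. The log2 fold change of Mrpl24 was -0.31 ± 0.10 (adjusted p = 0.0409, limma). It shares 26.3% of its exon bases with Rrnad1 on the opposite strand, which had 1.09 ± 0.139 FPKM in NC and 0.830 ± 0.134 FPKM in HFD. This call was lost when HFD1, HFD2, HFD3, HFD4, HFD6, NC2, NC3, NC4 or NC5 was left out, with adjusted p from 0.0530 to 0.0882 (limma), and on rescaled FPKM it was -0.12.

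Mrps25, the gene of a mitochondria-specific protein of the small subunit, was the member called higher. It had 1.18, 1.22 and 1.34 FPKM in NC, 1.32, 1.69 and 1.95 FPKM in HFD, and 1.44, 1.61 and 1.84 FPKM in SZ-A. The HFD range touched the NC range at its lower end. The log2 fold change of Mrps25 in HFD was 0.35 ± 0.11 (adjusted p = 0.0418, limma), and the call was lost when HFD1, HFD2, HFD4, HFD5, NC1, NC2, NC3, NC4 or NC6 was left out, with adjusted p from 0.0627 to 0.0964 (limma). The value of Mrps25 was 0.53 (adjusted p = 0.00713, limma) on rescaled FPKM and 0.22 with a pseudocount of 1, under the fold limit. Its exons overlap those of Nr2c2 on the opposite strand over 69.8% of their bases, and a counting setting for strand is not given in the sources used here. Nr2c2 itself had 0.961 ± 0.301 FPKM in NC and 0.917 ± 0.202 FPKM in HFD (SD, n = 6), below the limit for testing.

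Of the members named for the size of their difference, Mrpl47 fell short of the call, with a log2 fold change of -0.39 ± 0.15 (adjusted p = 0.0726, limma). Mrpl45, whose product helps attach the ribosome to the inner membrane, had 9.34 ± 0.530 FPKM in NC and 11.3 ± 1.59 FPKM in HFD (adjusted p = 0.0641, limma).

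**Figure D4:**
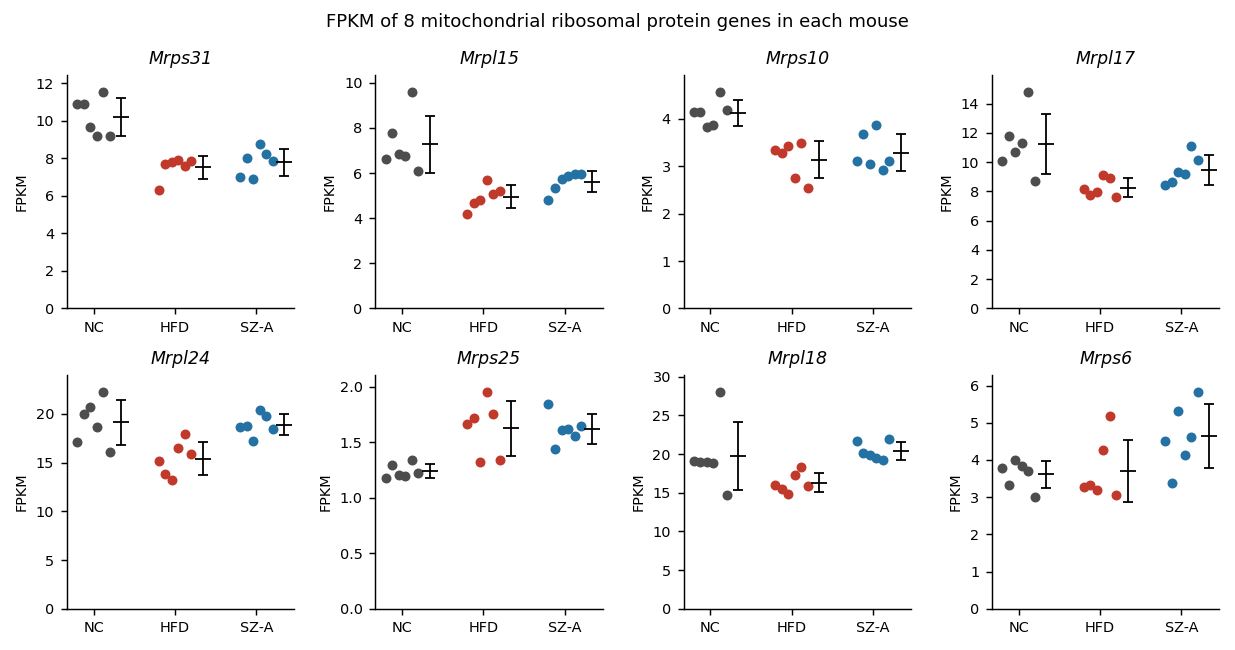
FPKM of 8 genes in each mouse, with NC in grey, HFD in red and SZ-A in blue. The bar beside the points is the mean ± SD of 6 mice and all axes start at 0. Mrps31 and Mrpl15 are lower in every HFD and SZ-A mouse than in any NC mouse, Mrps25 is the member called higher in both, and the Mrpl18 points of SZ-A (19.2 to 22.0) lie above those of HFD (14.8 to 18.3).

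The promoter windows of the genes called lower in HFD differed in the short sequences searched, which were found in a larger share of member windows than of all windows. Promoter windows from 250 bases before to 50 bases after the start were at hand for 69 of the 78 members (75 windows, RefSeq, GRCm38.p6), Mrpl15 not among them. They were searched on both strands for the core letters of motifs that are known from promoters of mitochondrial genes: NRF1 (TGCGCA), the ETS family to which GABP belongs (CCGGAA) and YY1 (AAGATGG). No matches of different motifs overlapped. The ETS core was in 57.3% of the member windows, against 14.9% of all 32851 windows and 28.5% of the 9428 windows of protein-coding genes tested. For NRF1 the shares were 29.3%, 7.76% and 13.9%, and for YY1 17.3%, 6.34% and 7.66%. A match of letters is a description and not a binding site. The 4 windows of the genes called lower are shown because these genes were called in the same direction in HFD against NC and differ in these letters. Capitals mark the matches on either strand.
Mrpl17: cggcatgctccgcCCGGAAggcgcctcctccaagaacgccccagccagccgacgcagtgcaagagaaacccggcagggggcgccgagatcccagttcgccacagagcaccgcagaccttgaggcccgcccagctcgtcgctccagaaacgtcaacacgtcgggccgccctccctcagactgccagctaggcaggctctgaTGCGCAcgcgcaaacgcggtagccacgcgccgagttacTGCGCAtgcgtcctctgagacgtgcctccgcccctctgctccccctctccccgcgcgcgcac
Mrps31: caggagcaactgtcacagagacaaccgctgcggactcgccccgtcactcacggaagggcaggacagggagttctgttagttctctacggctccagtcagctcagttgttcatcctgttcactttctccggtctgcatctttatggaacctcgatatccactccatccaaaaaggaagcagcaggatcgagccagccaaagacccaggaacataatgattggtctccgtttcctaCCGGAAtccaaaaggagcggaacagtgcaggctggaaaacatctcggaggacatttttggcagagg
Mrps10: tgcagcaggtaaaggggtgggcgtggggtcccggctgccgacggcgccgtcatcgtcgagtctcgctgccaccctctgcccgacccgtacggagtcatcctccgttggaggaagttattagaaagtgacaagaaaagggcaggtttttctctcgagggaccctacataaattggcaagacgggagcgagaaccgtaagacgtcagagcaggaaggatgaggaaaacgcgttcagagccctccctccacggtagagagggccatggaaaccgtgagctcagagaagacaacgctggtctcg
Mrpl24: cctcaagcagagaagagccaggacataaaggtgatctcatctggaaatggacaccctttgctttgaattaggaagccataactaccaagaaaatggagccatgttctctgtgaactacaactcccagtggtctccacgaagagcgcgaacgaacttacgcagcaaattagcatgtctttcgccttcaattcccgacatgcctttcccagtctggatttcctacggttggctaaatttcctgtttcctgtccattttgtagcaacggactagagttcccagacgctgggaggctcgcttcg
The window of Mrpl17 (chr7:105811038-105811337, minus strand) holds 2 NRF1 cores and 1 ETS core, and that of Mrps31 (chr8:22411090-22411389, plus strand) holds 1 ETS core. The windows of Mrps10 (chr17:47368947-47369246, plus strand) and Mrpl24 (chr3:87919294-87919593, plus strand) hold none of the 3, like 17 of the 75 member windows.

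SZ-A treatment was then compared with HFD, the comparison that asks what the drug changed. None of the 77 members was called, against 0.147% of all genes tested (15 genes, 0.0783% higher and 0.0685% lower). At the same thresholds but with another method (DESeq2), the study reported many more differential genes between these groups. The lack of calls among the members therefore holds for limma on FPKM only. In this comparison 11 members had an unadjusted p under 0.05 (limma), all of them large-subunit genes, against 14.8% of all genes tested. The voom alternative on fragments also called 0 members. The median log2 fold change was 0.08 over the members and 0.03 over all genes tested, with 64 members higher in SZ-A against 56.2% of all genes. It was 0.11 for the large and 0.06 for the small subunit, a difference of 0.045 that was 0.019 without SZ-A3, 0.027 without HFD2, 0.028 without SZ-A2, and 0.029 without SZ-A6. On rescaled FPKM the members' median was -0.095 while that of all genes was -0.15, so the direction turned and the distance from all genes, 0.05, did not. For 76 of the 77 members the 95% interval lay within a 1.5-fold change, against 78.4% of all genes tested, and the widest interval reached 0.32 to either side on the log2 scale.

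Mrpl18, a protein of the central protuberance of the large subunit, came closest to a call. Its FPKM was 14.8, 16.0 and 18.3 (lowest, median, highest) in HFD and 19.2, 19.97 and 22.0 in SZ-A, with no overlap. The NC mice spanned both groups, from 14.7 to 28.0. The log2 fold change of SZ-A against HFD was 0.32 ± 0.06 (adjusted p = 0.0740, limma), and it was 0.36 (adjusted p = 0.0385, limma) without HFD5. On rescaled FPKM the value of Mrpl18 was 0.14 (adjusted p = 0.183, limma). Mrpl24 had 13.3, 15.5 and 17.9 FPKM in HFD and 17.2, 18.7 and 20.4 FPKM in SZ-A, a log2 fold change of 0.30 ± 0.08 (adjusted p = 0.115, limma), and of 0.12 (adjusted p = 0.288, limma) on rescaled FPKM. Its mean in SZ-A, 18.9 ± 1.10, was near the 19.1 ± 2.30 of NC.

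Further members by size of the estimate were Mrpl51 (0.23 ± 0.08, adjusted p = 0.187, limma) in the large subunit and Mrps6 (0.32 ± 0.15, adjusted p = 0.350, limma) and Mrps18c (0.18 ± 0.10, adjusted p = 0.421, limma) in the small subunit. Mrps36 was the lowest, at -0.18 ± 0.14 (adjusted p = 0.588, limma). The genes that were called in HFD against NC had these intervals in SZ-A against HFD: Mrps31 from -0.12 to 0.22, Mrps10 from -0.15 to 0.28, Mrps25 from -0.23 to 0.24, Mrpl15 from 0.01 to 0.36 and Mrpl17 from 0.02 to 0.36. Those of Mrpl15 and Mrpl17 leave out 0 before the adjustment for all genes only (adjusted p = 0.322 and 0.276, limma). These intervals are on deposited FPKM. On rescaled FPKM, Mrpl15 was at -0.35 in HFD against NC and at -0.34 in SZ-A against NC, nearly the same.

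SZ-A mice were also set against NC. Here 4 members were called, Mrps31, Mrps10 and Mrpl15 lower and Mrps25 higher. They are 5.19% of the members, against 9.6% of all genes tested (5.31% higher and 4.3% lower). An unadjusted p under 0.05 (limma) was reached by 13 members, against 25.5% of all genes tested, and 43 members had an estimate above 0, against 49.0%. The comparison shares its NC mice with HFD against NC and its SZ-A mice with SZ-A against HFD. The median log2 fold change was 0.01 over the members and -0.01 over all genes tested, and for 76 of 77 members the 95% interval lay within a 1.5-fold change.

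Mrps31 was the firmest of the 4, at -0.39 ± 0.09 (adjusted p = 0.0138, limma), and kept its call under all 23 alternatives run. Mrps10 in SZ-A had 2.92, 3.11 and 3.88 FPKM, and 1 mouse reached into the NC range. Its log2 fold change was -0.32 ± 0.08 (adjusted p = 0.0306, limma), and the call was lost without SZ-A1, SZ-A3, SZ-A6, NC1, NC2 or NC6 (adjusted p 0.0518 to 0.0747, limma). Mrpl15 was at -0.36 ± 0.11 (adjusted p = 0.0487, limma). Its call was lost when any 1 of the 6 SZ-A mice or NC1, NC2, NC3 or NC4 was left out (adjusted p 0.0506 to 0.1003, limma). Mrps25 was at 0.36 ± 0.09 (adjusted p = 0.0267, limma), with every SZ-A mouse above every NC mouse, and was lost without SZ-A1, SZ-A3, SZ-A6, NC1, NC3 or NC4 (adjusted p 0.0507 to 0.0612, limma). Mrpl45 passed the adjusted p (0.0476, limma) at a fold of 1.17, under the limit. Mrpl23, which lies at the exit tunnel, was at 0.33 ± 0.11 (adjusted p = 0.0776, limma), and Mrps6 was at 0.34 ± 0.12 (adjusted p = 0.0990, limma). These became calls without NC5 (Mrpl23, adjusted p = 0.0493, limma) and without SZ-A2 (Mrps6, adjusted p = 0.0313, limma). Without NC6 3 members were called in SZ-A against NC, Mrps10 being lost. In HFD against NC 5 were called without it, Mrps25 being lost.

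By origin, the 30 large-subunit genes with bacterial relatives held the 3 large-subunit calls of HFD against NC, with a median of -0.10. In that comparison 20.2% of all genes tested were called, and 34.8% had an unadjusted p under 0.05 (limma). The 18 tested large-subunit genes specific to mitochondria held 0, with a median of -0.06 and 1 gene at an unadjusted p under 0.05 (limma). In the small subunit the 16 genes with bacterial relatives held 1 call (Mrps10, median -0.10) and the 10 specific to mitochondria held 2 (Mrps31 lower and Mrps25 higher, median -0.20). These medians of the classes with bacterial relatives turned to 0.09 on rescaled FPKM, that of the large-subunit class specific to mitochondria turned to 0.13, and that of the small-subunit class specific to mitochondria came to -0.01. The difference between the classes was not tested. The 5 further subunits with other symbols, among them Dap3 and Ptcd3, held 0 calls in each of the 3 comparisons. Of them, 0, 1 and 1 had an unadjusted p under 0.05 (limma) in HFD against NC, SZ-A against HFD and SZ-A against NC. The shares of all genes tested were 34.8%, 14.8% and 25.5% in the same order.

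The factors that build and serve the particle were read from lists. In HFD against NC, where 20.2% of all genes tested were called, 5 of 28 assembly and rRNA modification factors were called, near that share. Rpusd4, a pseudouridine synthase of mitochondrial rRNA, rose, with 1.92 ± 0.303 FPKM in NC and 2.76 ± 0.0987 in HFD (0.52 on the log2 scale, adjusted p = 0.00369, limma). Noa1 rose as well. Grsf1, an RNA granule protein, went from 42.0 ± 4.05 down to 31.2 ± 1.21 FPKM (a log2 fold change of -0.42, adjusted p = 0.00150, limma), and Tfb2m and Mtg1 fell. Of 14 translation factors, Oxa1l, the insertase that receives new chains at the inner membrane, fell by 0.41 on the log2 scale (adjusted p = 0.00634, limma), and so did Mtif3, an initiation factor. Among the mitochondrial tRNA synthetases, Aars2 rose by 0.35 on the log2 scale (adjusted p = 0.0146, limma). None of the 13 tested regulators of transcription and biogenesis was called in any comparison. Of them, 2, 0 and 2 had an unadjusted p under 0.05 (limma) in HFD against NC, SZ-A against HFD and SZ-A against NC. Among all genes tested the shares were 34.8%, 14.8% and 25.5% in the same order. Ppargc1a, a coactivator of mitochondrial biogenesis, had 2.31 ± 1.34 FPKM in NC and 1.23 ± 0.305 in HFD (adjusted p = 0.0997, limma). In SZ-A against HFD none of these lists held a call. There 5 of 28 assembly factors, 1 of 14 translation factors and 0 of 16 synthetases had an unadjusted p under 0.05 (limma). Of all genes tested, 14.8% had one.

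The messages that the particle translates were listed apart from its own proteins. Of the 13 proteins encoded in the mitochondrial genome, mt-Cytb, mt-Nd1, mt-Nd2, mt-Nd4 and mt-Nd5 were called lower in HFD than in NC, against 9.49% of all genes tested, and the median log2 fold change of the list was -0.43 (-0.23 on rescaled FPKM). In mt-Nd1 the level fell from 5255 ± 1063 to 3615 ± 374 FPKM (adjusted p = 0.0162, limma). In SZ-A against NC, mt-Cytb, mt-Nd1 and mt-Nd5 were called lower, against 4.3% of all genes tested, with a list median of -0.35. In SZ-A against HFD none was called and none had an unadjusted p under 0.05 (limma). Libraries were made from poly-A RNA, so that the tails of these messages also bear on their level. Of 78 nuclear-encoded respiratory chain subunits, 4 were called lower in HFD than in NC (Atp5o, Ndufs7, Ndufv2 and Sdhd), against 9.49% of all genes tested. The median of this list was -0.13, and it was 0.07 on rescaled FPKM.

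The cytosolic ribosomal proteins are the counterpart of the mitochondrial ones outside the organelle, and their values stand beside them here without a test of the difference. Of 78 tested, 35 were called lower in HFD than in NC, against 9.49% of all genes tested, with a median of -0.32 (-0.13 on rescaled FPKM). In SZ-A against HFD their median was 0.24 (0.06 on rescaled FPKM) with 76 of 78 higher, 0 called and 52 at an unadjusted p under 0.05 (limma), against 14.8% of all genes tested. The corresponding medians of the Mrpl and Mrps genes were -0.08 and 0.08, and both turned sign on rescaled FPKM.

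**Figure D5:**
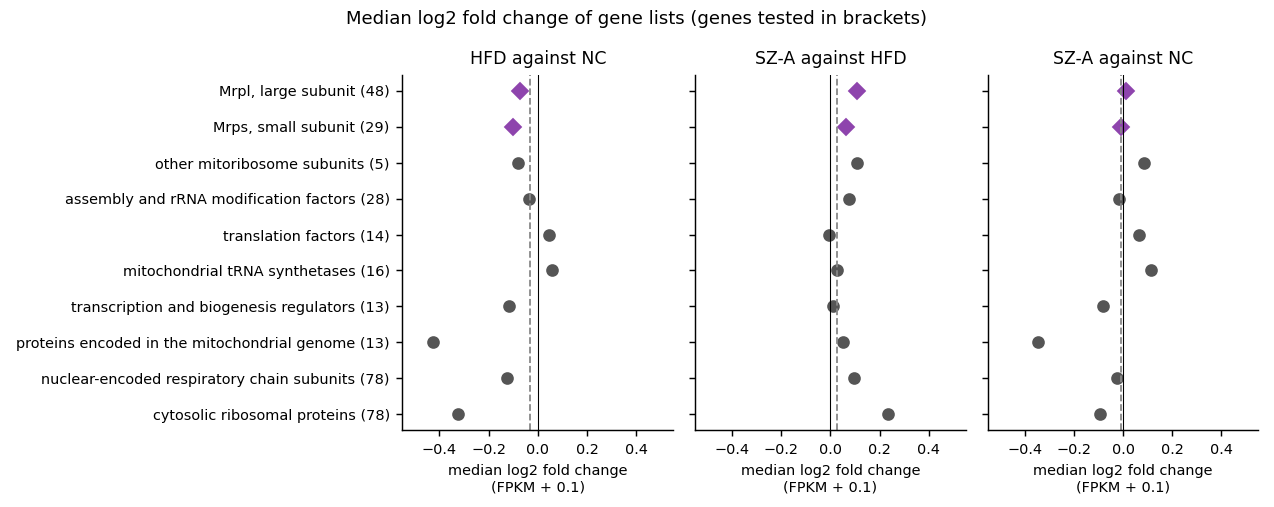
Median log2 fold change of FPKM + 0.1 in 3 comparisons for the Mrpl and Mrps genes (diamonds) and 8 further lists (circles), with the number of genes tested in brackets. The dashed line is the median of all 10216 genes tested. In HFD against NC the lists encoded in the mitochondrial genome (-0.43) and of cytosolic ribosomal proteins (-0.32) lie farthest left and keep their sign on rescaled FPKM (-0.23 and -0.13), while the Mrpl and Mrps medians (-0.07 and -0.10) lie near the line and turn positive.

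Markers of the liver's cell types were read in the same table. All 8 hepatocyte markers were found, and their summed FPKM was 39288 to 58773 for NC mice, 24999 to 43384 for HFD mice and 31877 to 55016 for SZ-A mice, with 4 called lower in HFD than in NC (9.49% of all genes tested were). The 8 macrophage markers summed to 130 to 266 for NC mice, 251 to 411 for HFD mice and 222 to 319 for SZ-A mice, with 4 called higher in HFD than in NC. Of 8 stellate cell markers 5 were called higher in HFD, and of 8 endothelial markers 2, where 10.7% of all genes tested were called higher. Their sums were 36.4 to 56.2 and 71.8 to 88.5 in NC, 41.4 to 94.6 and 80.8 to 96.7 in HFD, and 37.6 to 55.9 and 79.3 to 86.3 in SZ-A. In SZ-A against HFD, 56.2% of all genes tested had an estimate above 0. Among the marker lists it was 8 of 8 (hepatocyte), 1 of 8 (macrophage), 0 of 8 (stellate) and 3 of 8 (endothelial). There 1 macrophage marker was called lower, against 0.0685% of all genes tested. Of 6 cholangiocyte markers 2 were tested, and 1 was called lower in SZ-A than in NC, against 4.3% of all genes tested. The T and B cell markers were all under a mean of 1 FPKM over the 18 mice, and no marker was at 0 in all mice. The part of these marker levels in the values of the Mrpl and Mrps genes was not tested.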

How the data were processed

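Liver poly-A RNA of 18 mice was sequenced as paired reads. Per the labels, the authors aligned reads with HISAT2 2.0.5 to mm10 and counted them with featureCounts 1.5.0-p3. The table deposited by the authors holds FPKM per gene and mouse. Its values gave back whole fragments for 100% of the values above 0 (tolerance 0.05). The labels gave the groups. The members and gene lists were chosen with earlier results of these data known.

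FPKM + 0.1 was taken to log2, genes with a mean under 1 FPKM were left out, and each pair of groups was fitted alone with limma 3.58.1 (R 4.3.3, eBayes with trend, two-sided, Benjamini-Hochberg). The fit was tested on simulated data. Precision rests on 17163191 to 20493907 fragments and 6 mice a group. Named genes were the called members, the 3 of each subunit with the largest log2 fold change in each comparison, the 2 highest and 2 lowest of each subunit, and up to 2 per further list. Mrpl45, Mrps11, Noa1, Tfb2m, Mtg1, Mtif3, Atp5o, Ndufs7, Ndufv2, Sdhd the mitochondrial genes called, and genes that overlap or neighbour a member were named after their values were seen. Other pseudocounts, filters, scalings, fits, a replicate block and leaving out each mouse were tried. Replicate numbers did not pair the mice. The result for 1 gene is not reported here.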

Additional observations from a re-analysis of the deposited data

Results flagged for a closer look

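Among 66 groups of 6 mice tested for 1 outlying mouse (22 values in 3 groups), 8 held a mouse whose gap to the next was past Dixon's critical value. Chance flags about 1 in 20 groups. In NC, NC5 was far above the other mice for Mrpl18 (28.0 FPKM, the next 19.1), Mrpl34 (89.6, the next 68.7), Mrps21 (40.6, the next 33.7) and the median small-subunit gene (9.01, the next 7.50). Mrpl14 was low in NC1 (36.2 FPKM, the next 51.3). In HFD mice, Mrps31 was low in HFD1 (6.30 FPKM, the next 7.59), and Mrps21 was high in HFD4 (43.8, the next 37.5). In SZ-A mice, Mrpl33 was low in SZ-A3 (1.44 FPKM, the next 1.87).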

How the results depend on the processing

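Of 216 summary values under other settings, 192 moved by less than the spread between mice (1 SD) or, for counts, by no more than 1.5 times. For the members' median that SD was 0.10, beside medians of 0.08, -0.08 and 0.01. A median could thus change sign and still count as unmoved. In SZ-A against HFD, 1 member (Mrpl18) was called at a mean of at least 5 FPKM and with sample weights, 2 with an unadjusted p, and 0 to 1 without each mouse. Rescaling to a common sum put the median at -0.095 here and at 0.11 in HFD against NC, since it moves all genes, and Mrps18c at -6.34e-05. In HFD against NC, 10 members were called after rescaling and 10 with sample weights, and 4 to 7 without each mouse. All counts of members called under other settings, here and elsewhere in the text, stand without the shares of all genes called under those settings. The large minus small difference of medians, 0.03, was -0.0133 with sample weights and -0.0128 to 0.0285 without each mouse. In SZ-A against NC, where 4 were called, 1 was called with a pseudocount of 1, 2 without a filter on low values, 2 at a mean of at least 5 FPKM and 7 with sample weights, and 1 to 5 without each mouse. It was 1 without SZ-A1, SZ-A3, SZ-A6 or NC1, and 2 without NC2, NC3 or NC4. The cause was not tested.

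With the replicate number as a block, 0, 4 and 1 members were called in SZ-A against HFD, HFD against NC and SZ-A against NC. These counts too stand without the shares of all genes called. The deviations of same-numbered mice correlated at -0.07 to 0.29, -0.12 to 0.10 and -0.04 to 0.11, and 1, 1 and 3 of 6 mice correlated best with their own number, so the block is given here only. Where depth is concerned, fragments cover counting error only, and the widest 95% interval of a member reached 0.34 to either side on the log2 scale.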

Other observations

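Many Mrpl and Mrps genes sit head to head with another gene. For 33 of the 78 members (42.3%) the nearest start on the opposite strand of a protein-coding gene lay within 1000 bases, against 10.8% of all 22046 protein-coding genes. Some of these neighbours also serve mitochondria. Mrps12, which encodes a protein of the decoding site, starts 172 bases from Sars2, the mitochondrial seryl-tRNA synthetase, and Mrpl43 starts 116 bases from Twnk, the mitochondrial DNA helicase. Mrpl46 and Mrps11 are both members and overlap at their starts.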
